A study of Homo sapiens with 24 samples.

Results

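The genes described here encode the lipid and xenobiotic nuclear receptors LXR beta (NR1H2), LXR alpha (NR1H3), PXR (NR1I2), CAR (NR1I3), PPAR alpha, delta and gamma (PPARA, PPARD, PPARG), RXR alpha and beta (RXRA, RXRB) and the vitamin D receptor (VDR). They were taken by gene symbol from the count files, 10 of 26475 symbols. RNA of HepG2, a human hepatocellular carcinoma cell line, was sequenced in 24 libraries, 3 for each of 8 treatments. The treatments were DMSO, the BET inhibitor ABBV-075 at 50 nM, the BET inhibitor ABBV-744 at 50 nM or at 500 nM, interferon gamma (IFNg), and IFNg combined with each of those inhibitor treatments. The labels give neither the duration of any treatment nor the dose of IFNg. The methods of the article give 12 h for ABBV-075 and end a list that starts with DMSO with 24 h, but they describe another set of groups, so that a difference in time between groups cannot be told apart from the treatments here.

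These receptors are transcription factors that bind small fat-soluble ligands. LXR proteins sense oxidized cholesterol, PPAR proteins sense fatty acids, PXR and CAR sense drugs and other foreign compounds, and VDR binds active vitamin D. Each of them binds DNA as a heterodimer with an RXR protein, and in the liver they adjust cholesterol efflux, fatty acid oxidation, lipid storage and drug metabolism. BET inhibitors displace BET bromodomain proteins from acetylated chromatin, and IFNg is a cytokine that switches on genes of immune defence.

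Between 2978982 and 4304103 reads per library fell on genes, 12% to 16.8% of the reads in the files, and 56.0% to 69.4% had more than 1 possible place in the genome. The identity of the cells was checked on 8 liver cell markers, all of which were expressed. In DMSO, ALB stood at 3056 ± 335 CPM (reads scaled by TMM to a common library size; SD, n = 3) and APOA1 at 1762 ± 122 CPM. The treatments were checked on genes known to respond to them. With IFNg alone, GBP1 rose by 4.89 and IRF1 by 4.26 on the log2 scale. HEXIM1, a gene known to rise with BET inhibition, rose by 1.41 with ABBV-075 and by 0.74 with ABBV-744 at 500 nM, and did not pass the test with ABBV-744 at 50 nM. The ABBV-075 libraries differed most among themselves: replicates 1 and 3 had a chi-square of 15.5 per degree of freedom over 11786 genes.

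In GENCODE v44 on GRCh38, NR1I2 (ENSG00000144852.20) spans chromosome 3 from 119780484 to 119818487 and PPARG (ENSG00000132170.24) spans chromosome 3 from 12287368 to 12434356. PPARD (ENSG00000112033.14) spans chromosome 6 from 35342558 to 35428191 and RXRB (ENSG00000204231.11) spans chromosome 6 from 33193588 to 33200665. RXRA (ENSG00000186350.12) spans chromosome 9 from 134317098 to 134440585, and PPARA (ENSG00000186951.17) chromosome 22 from 46150521 to 46243755. NR1H2 (ENSG00000131408.15) spans chromosome 19 from 50329653 to 50383388, and NR1H3 (ENSG00000025434.19) chromosome 11 from 47248300 to 47269033. NR1I3 (ENSG00000143257.12) spans chromosome 1 from 161229666 to 161238244, and VDR (ENSG00000111424.12) chromosome 12 from 47841537 to 47943048. The GC content of the exons ran from 39.7% for PPARG through 48.1% for PPARA and 50.3% for NR1I2 to 60.6% for RXRA and 61.0% for NR1H2.

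Promoter windows of 300 bases were available from RefSeq (GRCh38.p14) for 9 of the 10 members, 21 windows in all. Of 26418 windows measured, 24899 ran from 250 bases before a gene start to 50 bases from it on. The windows of NR1I2 and PPARG are shown because both genes fell with ABBV-075, that of PPARD because it was higher with ABBV-075, and that of RXRA because it was lower with ABBV-075 but higher with ABBV-744 at 50 nM. Each is the first window listed for its gene, on the plus strand: chr3:119781851-119782150 for NR1I2, chr3:12287118-12287417 for PPARG, chr6:35342308-35342607 for PPARD and chr9:134326205-134326504 for RXRA. Capitals mark matches, on either strand, to AGGTCA (the core motif of nuclear receptor sites), to GGGCGG (the GC box), to CCAAT (the CCAAT box), to TATAAA (the TATA box) or to TTCNNNGAA (the gamma-activated site).
NR1I2: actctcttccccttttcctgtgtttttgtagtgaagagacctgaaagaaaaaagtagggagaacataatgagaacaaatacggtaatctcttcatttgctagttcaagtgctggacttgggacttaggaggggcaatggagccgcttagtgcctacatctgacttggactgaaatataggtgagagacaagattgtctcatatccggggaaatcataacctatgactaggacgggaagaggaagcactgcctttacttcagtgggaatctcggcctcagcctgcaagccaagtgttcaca
PPARG: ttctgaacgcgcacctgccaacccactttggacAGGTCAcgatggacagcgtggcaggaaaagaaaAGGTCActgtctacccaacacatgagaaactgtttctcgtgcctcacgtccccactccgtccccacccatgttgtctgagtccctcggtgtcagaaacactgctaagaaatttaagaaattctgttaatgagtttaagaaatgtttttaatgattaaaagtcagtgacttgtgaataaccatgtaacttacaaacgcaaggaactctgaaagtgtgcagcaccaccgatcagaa
PPARD: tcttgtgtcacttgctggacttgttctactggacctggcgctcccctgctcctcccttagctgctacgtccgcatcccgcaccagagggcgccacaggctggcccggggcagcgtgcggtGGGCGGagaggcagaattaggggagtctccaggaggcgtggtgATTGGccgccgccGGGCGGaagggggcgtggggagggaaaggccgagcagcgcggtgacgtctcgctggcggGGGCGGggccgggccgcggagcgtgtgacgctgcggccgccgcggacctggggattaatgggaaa
RXRA: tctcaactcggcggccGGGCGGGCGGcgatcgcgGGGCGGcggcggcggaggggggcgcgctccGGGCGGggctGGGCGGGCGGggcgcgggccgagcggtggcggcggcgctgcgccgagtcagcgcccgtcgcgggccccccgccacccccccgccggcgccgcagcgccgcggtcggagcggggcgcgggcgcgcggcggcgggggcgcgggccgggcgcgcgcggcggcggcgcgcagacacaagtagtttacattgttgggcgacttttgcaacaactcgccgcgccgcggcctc
The NR1I2 window held none of the motifs and 5 CpG dinucleotides, with a GC content of 45.3%. The PPARG window held AGGTCA at 2 places, with a GC content of 45.0%. The PPARD window held the GC box at 3 places and the CCAAT box at 1, with a GC content of 70.3%. The RXRA window held the GC box at 6 places, some of them overlapping, with a GC content of 84.0%. Among all 35116 windows, 13.8% held AGGTCA, 45.0% held GGGCGG, 34.6% held CCAAT, 11.5% held TATAAA and 7.66% held TTCNNNGAA, and the median GC content was 58.7%. A match describes the letters of the window only.

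Per kilobase of exon, RXRB had the highest level of the members in DMSO, at 13.1 ± 0.706 CPM per kb (SD, n = 3). PPARD (5.14 ± 0.422 CPM per kb), NR1H2 (4.92 ± 0.0889 CPM per kb) and NR1H3 (4.86 ± 0.26 CPM per kb) followed, and neighbours among these overlapped in their libraries. RXRA stood at 4.16 ± 0.189, NR1I2 at 3.24 ± 0.0564, PPARG at 1.88 ± 0.274 and PPARA at 1.32 ± 0.153 CPM per kb, each apart from the next. With IFNg plus ABBV-075 the level of NR1I2 was 0.549 ± 0.201 CPM per kb, and NR1I2 then stood below PPARA (0.793 ± 0.0834 CPM per kb) and PPARG (0.934 ± 0.164 CPM per kb), which overlapped. VDR and NR1I3 were near the limit of detection. VDR had 1 to 9 counts in a library, and NR1I3 had 0 to 4 counts, with 0 in 16 libraries. A count of 0 allows up to 3 counts at the depth of a library, so that absence is not shown. Neither passed the filter on low counts, and 8 of the 10 members were tested with it. In the fits without this filter and with DESeq2, none of 26 values for NR1I3 and 28 for VDR was called, and most of the DESeq2 values had no adjusted p.

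**Figure D1:**
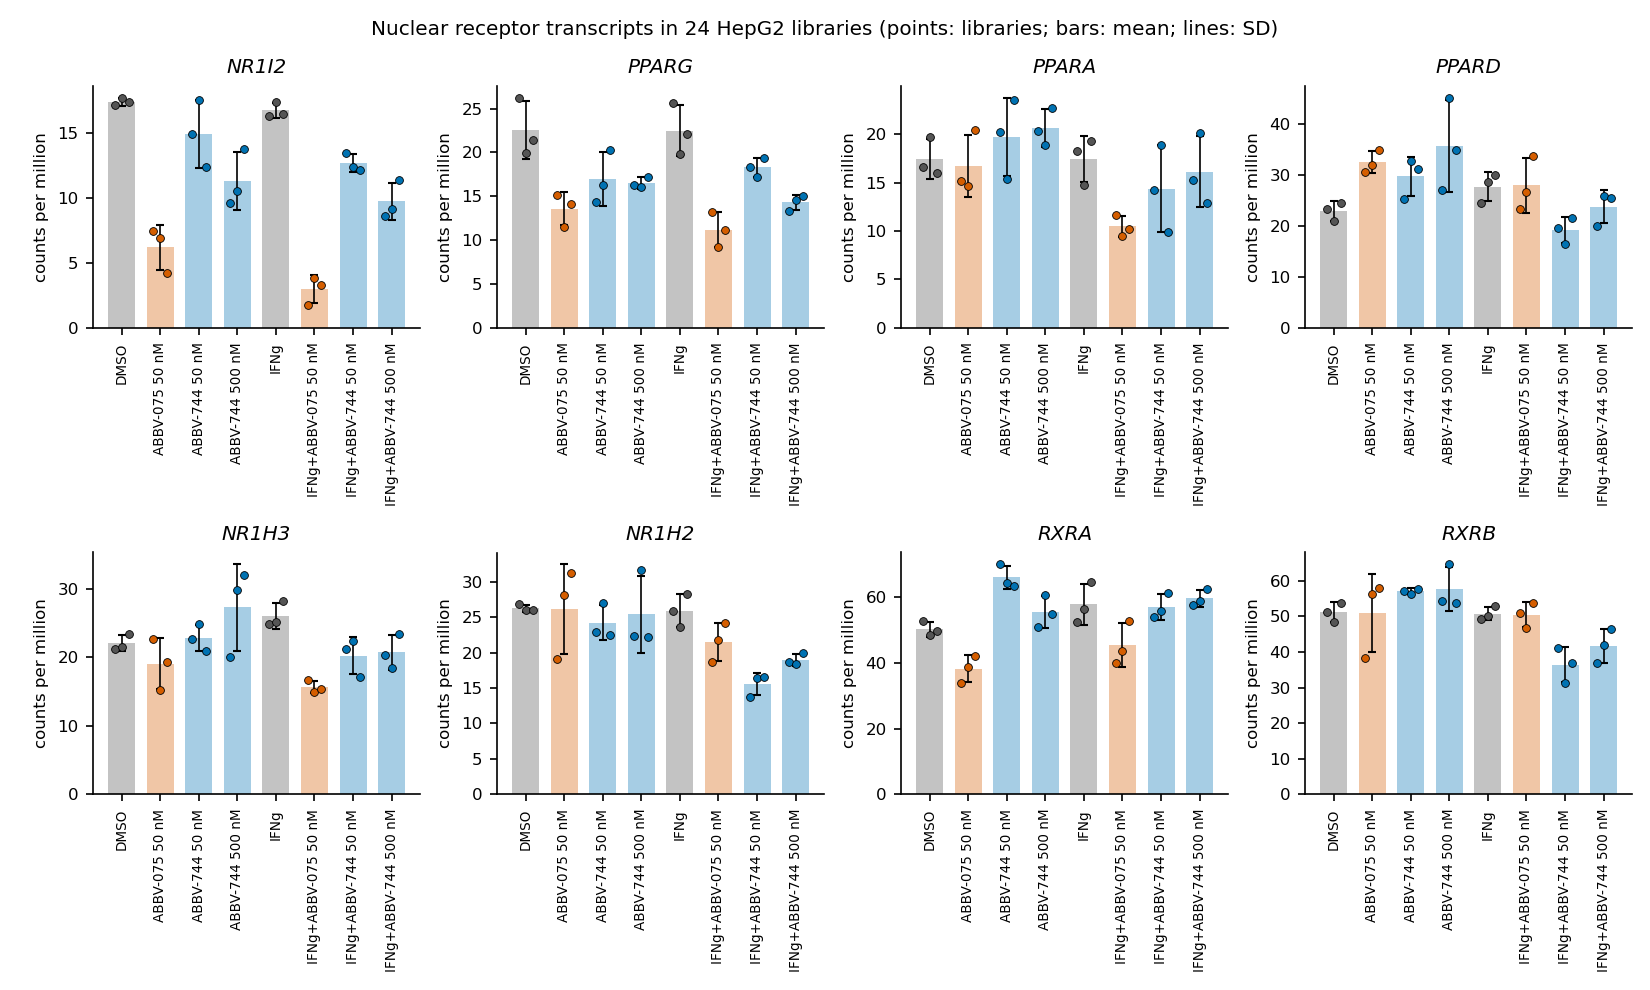
CPM of the 8 tested members in each of the 3 libraries of every group, with bars at the group means and lines for the SD. NR1I2 is lowest with IFNg plus ABBV-075, between 1.74 and 3.81 CPM, against 16.4 to 17.4 CPM with IFNg alone.

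How many members changed was read against all genes tested, with edgeR's quasi-likelihood test at 0.05 after Benjamini-Hochberg adjustment. With ABBV-075 against DMSO 1 of the 8 members was higher and 3 were lower, while 19.8% of all genes tested were higher and 19.6% lower. With ABBV-744 at 50 nM 1 member was higher and 0 lower, against 8.81% and 10.1% of all genes, with 3 members at an unadjusted p under 0.05 in either direction and 1 called by DESeq2. With ABBV-744 at 500 nM 1 was higher and 1 lower, against 7.48% and 7.8%. IFNg alone called 0 members higher and 0 lower, against 2.76% and 0.695%, with 0 at an unadjusted p under 0.05 and 0 by DESeq2. With IFNg present, ABBV-075 called 0 higher and 5 lower against 28.2% and 28.4% of all genes, and the median log2 fold change was -0.55 over the members and -0.00 over all genes. ABBV-744 with IFNg called 0 higher and 3 lower at each dose, against 27.4% and 24.3% at 50 nM and 22.9% and 22.8% at 500 nM. The median over the members was there -0.36 at 50 nM and -0.32 at 500 nM. Against DMSO it was -0.16 with ABBV-075, but 0.12 and 0.16 with ABBV-744 at 50 nM and 500 nM. The shares of the 8 members were not tested against those of all genes, and are given as counts only. DESeq2 called 4, 3 and 2 members in the comparisons with IFNg present, in the order given.

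Some of these counts rest on single libraries. With ABBV-075 the 4 members became 1 without DMSO replicate 1 and 2 without DMSO replicate 2, DMSO replicate 3 or ABBV-075 replicate 2, and DESeq2 called 2. With ABBV-744 at 50 nM the count was 0 without DMSO replicate 2 or 3 and 2 without ABBV-744 replicate 1. With ABBV-744 at 500 nM it was 1 without DMSO replicate 1 or 3 and 0 without DMSO replicate 2. Scaling by library size alone moved the median of all genes by -0.10 in the comparison of ABBV-744 at 50 nM with DMSO, and the genes called there went from 979 higher and 1123 lower to 415 and 1220. At 500 nM they went from 832 and 868 to 475 and 1067, and with IFNg alone from 310 and 78 to 250 and 204. The labels do not say whether replicates are separate cultures (the article writes of experimental triplicates and of 12 independent samples, for its own set of groups), so that p measures the spread between libraries. Lower RNA per cell and fewer cells of a type cannot be told apart in these bulk samples.

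NR1I2 encodes PXR, the receptor for drugs and other foreign compounds, and it was lower with ABBV-075 in every library, with and without IFNg. In DMSO its level was 17.2, 17.8 and 17.4 CPM, and with ABBV-075 it was 7.48, 6.89 and 4.21 CPM. With IFNg alone it was 16.4, 17.4 and 16.5 CPM, and with IFNg plus ABBV-075 it was 1.74, 3.81 and 3.31 CPM, from 7, 14 and 11 counts. The treated and control libraries did not overlap in either setting, and the libraries with IFNg plus ABBV-075 were the lowest of all. ABBV-075 lowered NR1I2 by -1.50 on the log2 scale (SE 0.23, edgeR quasi-likelihood test with Benjamini-Hochberg adjustment, adjusted p = 0.000384), just short of the fold threshold of the article, 1.5. Over its alternatives the value ran from -1.66 to -1.30, on both sides of that threshold. In the presence of IFNg the log2 fold change was -2.52 (SE 0.27, 95% interval -3.07 to -1.97, edgeR with Benjamini-Hochberg adjustment, adjusted p = 5.01e-10), a level 5.73-fold lower. That passed the thresholds of the article, as 3.75% of all genes tested did in the lower direction. Leaving out any library, or any other setting tried, kept both calls.

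NR1I2 was lower with ABBV-744 at 500 nM. At that dose its level was 9.60, 10.6 and 13.8 CPM, below every DMSO library, and with IFNg plus 500 nM it was 8.66, 9.20 and 11.4 CPM, below every IFNg library. The log2 fold changes were -0.61 (SE 0.20, edgeR with Benjamini-Hochberg adjustment, adjusted p = 0.0316) and -0.79 (SE 0.21, edgeR with Benjamini-Hochberg adjustment, adjusted p = 0.00239). The first of them did not pass with DESeq2 or the replicate block (-0.62), nor without DMSO replicate 1 (-0.63), DMSO replicate 2 (-0.60), DMSO replicate 3 (-0.61) or ABBV-744 500 nM replicate 1 (-0.50), and adjusted p ran from 0.00886 to 0.136 over its alternatives. At 50 nM the level was 14.9, 17.6 and 12.4 CPM, which overlapped DMSO, and with IFNg 13.5, 12.4 and 12.2 CPM, all below IFNg alone, and neither passed the test (log2 fold changes -0.21 and -0.38).

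NR1I3 encodes CAR, which shares many targets with PXR. It had 1, 1 and 0 counts in DMSO, 0 in all libraries with ABBV-075 and with ABBV-744 at 50 nM, and 0, 0 and 4 with ABBV-744 at 500 nM. With IFNg it had 0, 1 and 1 counts, and 0, 0 and 1 with IFNg plus ABBV-075, 0, 0 and 1 with IFNg plus ABBV-744 at 50 nM and 0, 1 and 0 at 500 nM. Over the 24 libraries the column for the strand of NR1I3 held 11 reads and that for the other strand 531, but the column without strand held 25, so that most of the 531 are not assigned to NR1I3 there.

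Of 14 listed targets of PXR and CAR, 5 were expressed enough to be tested. Many of the classical ones were near 0 in DMSO: CYP2B6, CYP2C8 and UGT1A1 had 0 to 1 counts in a library, and CYP3A4 had 1 to 4. ABBV-075 called 0 of the 5 higher and 2 lower, against 19.8% and 19.6% of all genes. With IFNg it called 0 and 3, against 28.2% and 28.4%. ABBV-744 called 0 higher and 2 lower at each dose without IFNg, and with IFNg 0 and 4 at 50 nM and 0 and 3 at 500 nM. IFNg alone called 1 higher and 0 lower. These counts were not tested against the shares of all genes, which are given for the other comparisons with the members above.

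SULT2A1, a sulfotransferase for steroids and bile acids, changed the most among them. Its level was 77.0 ± 1.92 CPM in DMSO and 10.7 ± 1.14 CPM with ABBV-075 (SD, n = 3), and 115 ± 15.6 CPM with IFNg against 13.0 ± 2.87 CPM with IFNg plus ABBV-075. The log2 fold changes were -2.87 (edgeR with Benjamini-Hochberg adjustment, adjusted p = 1.97e-07) and -3.14 (adjusted p = 1.91e-19), with no overlap between the libraries. ABBV-744 at 50 nM and 500 nM gave -0.85 and -1.14, and with IFNg -0.72 and -1.37. IFNg alone raised SULT2A1 by 0.58. ABCC2, an export pump for conjugated drugs and bilirubin, fell from 484 ± 26.9 CPM in DMSO to 110 ± 11.4 CPM with ABBV-075 (log2 fold change -2.16) and by 2.36 with IFNg present. With ABBV-744 at 50 nM and 500 nM ABCC2 gave -0.37 and -0.57, the former not past the threshold without DMSO replicate 3 (-0.33), and -0.42 and -0.66 with IFNg. POR, the electron donor of the P450 enzymes, was lower with IFNg plus ABBV-744 (-0.69 and -0.44), and after correction for GC content -0.35 at 50 nM and, no longer past the threshold, -0.18 at 500 nM. ALAS1, which starts heme synthesis, was called lower with IFNg plus ABBV-744 at 50 nM (-0.83, lost without IFNg replicate 3, -0.54) and with IFNg plus ABBV-075 (-0.71, lost with DESeq2, -0.70, after correction for GC content, -0.44, and without IFNg replicate 3, -0.43, or IFNg plus ABBV-075 replicate 1, -0.58).

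**Figure D2:**
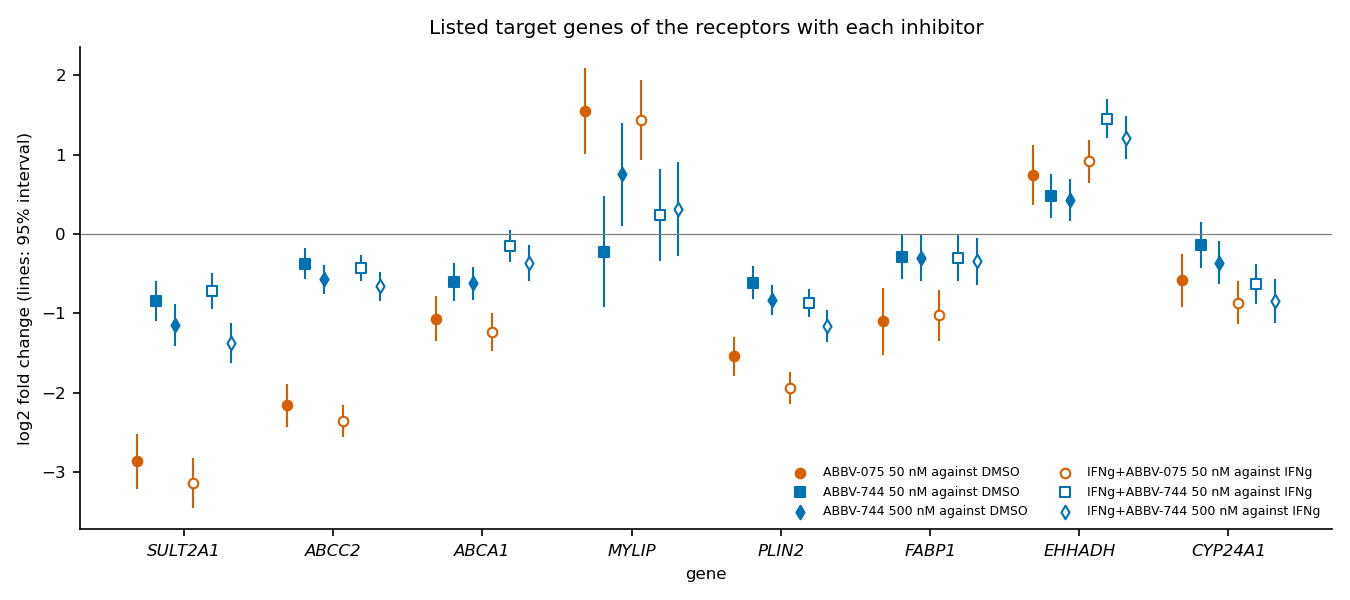
Log2 fold change of 8 listed receptor targets with each inhibitor treatment, against DMSO (filled) or against IFNg (open), with lines for the 95% interval. SULT2A1 and ABCC2 lie lowest with ABBV-075, at -2.87 and -2.16 without IFNg, and EHHADH lies above 0 throughout.

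Among the PPAR genes the clearest change was in PPARG, the receptor that drives fat storage. Its level was 26.3, 20.0 and 21.5 CPM in DMSO and 15.2, 11.5 and 14.1 CPM with ABBV-075. With IFNg alone it was 25.6, 19.8 and 22.1 CPM, and with IFNg plus ABBV-075 it was 13.2, 9.25 and 11.2 CPM. All libraries with ABBV-075 lay below all of their controls. The log2 fold changes were -0.74 (SE 0.19, edgeR with Benjamini-Hochberg adjustment, adjusted p = 0.00893) and -1.01 (SE 0.20, edgeR with Benjamini-Hochberg adjustment, adjusted p = 3.79e-05). The former was -0.62 without DMSO replicate 1, just past the threshold on the other side (adjusted p from 0.000386 to 0.0501 over its alternatives). ABBV-744 at 500 nM with IFNg gave 13.3, 14.5 and 15.1 CPM, below every IFNg library, and a log2 fold change of -0.67 (SE 0.18, edgeR with Benjamini-Hochberg adjustment, adjusted p = 0.00331), which was -1.12 after correction for GC content. Without IFNg the values with ABBV-744 were -0.39 at 50 nM and -0.44 at 500 nM, neither past the threshold, from 14.3, 16.3 and 20.3 CPM and 16.3, 16.0 and 17.3 CPM. With IFNg plus 50 nM it was 18.3, 17.2 and 19.3 CPM, below IFNg alone, and did not pass (-0.28). It passed there only after correction for GC content (-0.88).

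PPARD, the PPAR gene found in most tissues, moved the other way without IFNg. Its level was 23.3, 20.9 and 24.6 CPM in DMSO, 30.6, 31.9 and 34.9 CPM with ABBV-075 and 27.0, 45.2 and 34.8 CPM with ABBV-744 at 500 nM. Both treatments lay above DMSO in all 3 libraries. The log2 fold changes were 0.48 (SE 0.15, edgeR with Benjamini-Hochberg adjustment, adjusted p = 0.0257) and 0.64 (SE 0.17, edgeR with Benjamini-Hochberg adjustment, adjusted p = 0.00794). The rise with ABBV-075 did not pass with DESeq2 (0.49), nor without DMSO replicate 1 (0.49), 2 (0.41) or 3 (0.53) or ABBV-075 replicate 2 (0.50), and adjusted p ran from 0.00098 to 0.114. The rise with ABBV-744 did not pass without DMSO replicate 2 (0.58), with adjusted p from 0.000526 to 0.0627 over its alternatives. With ABBV-744 at 50 nM PPARD was at 25.3, 32.7 and 31.1 CPM, all above DMSO, a log2 fold change of 0.39 that passed only without ABBV-744 replicate 1 (0.50).

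With IFNg present, PPARD was lower with ABBV-744 at 50 nM. Its level was 24.6, 28.6 and 29.9 CPM with IFNg and 19.5, 16.4 and 21.6 CPM with IFNg plus ABBV-744, without overlap. The log2 fold change was -0.51 (SE 0.15, edgeR with Benjamini-Hochberg adjustment, adjusted p = 0.00644), and -0.17, no longer past the threshold, after correction for GC content. IFNg plus ABBV-075 left PPARD at 23.4, 26.7 and 33.8 CPM, which overlapped IFNg alone, with a log2 fold change of -0.00 (95% interval -0.33 to 0.32). With IFNg plus ABBV-744 at 500 nM it was 20.0, 25.8 and 25.5 CPM, which overlapped IFNg alone and did not pass.

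PPARA, the main driver of fatty acid oxidation in the liver, passed the test with IFNg plus ABBV-075. Its level was 18.3, 14.8 and 19.3 CPM with IFNg and 11.7, 9.52 and 10.2 CPM with IFNg plus ABBV-075. The groups did not overlap, and the log2 fold change was -0.74 (SE 0.21, edgeR with Benjamini-Hochberg adjustment, adjusted p = 0.00245). Without IFNg, PPARA with ABBV-075 was at 15.2, 14.6 and 20.4 CPM against 16.6, 19.8 and 16.0 CPM in DMSO, which overlapped, with a log2 fold change of -0.09. With ABBV-744 it was 20.3, 15.4 and 23.5 CPM at 50 nM and 20.4, 18.9 and 22.7 CPM at 500 nM, and with IFNg plus ABBV-744 14.2, 18.9 and 9.95 CPM and 15.3, 20.2 and 12.9 CPM. All of these overlapped their controls, and none passed.

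**Figure D3:**
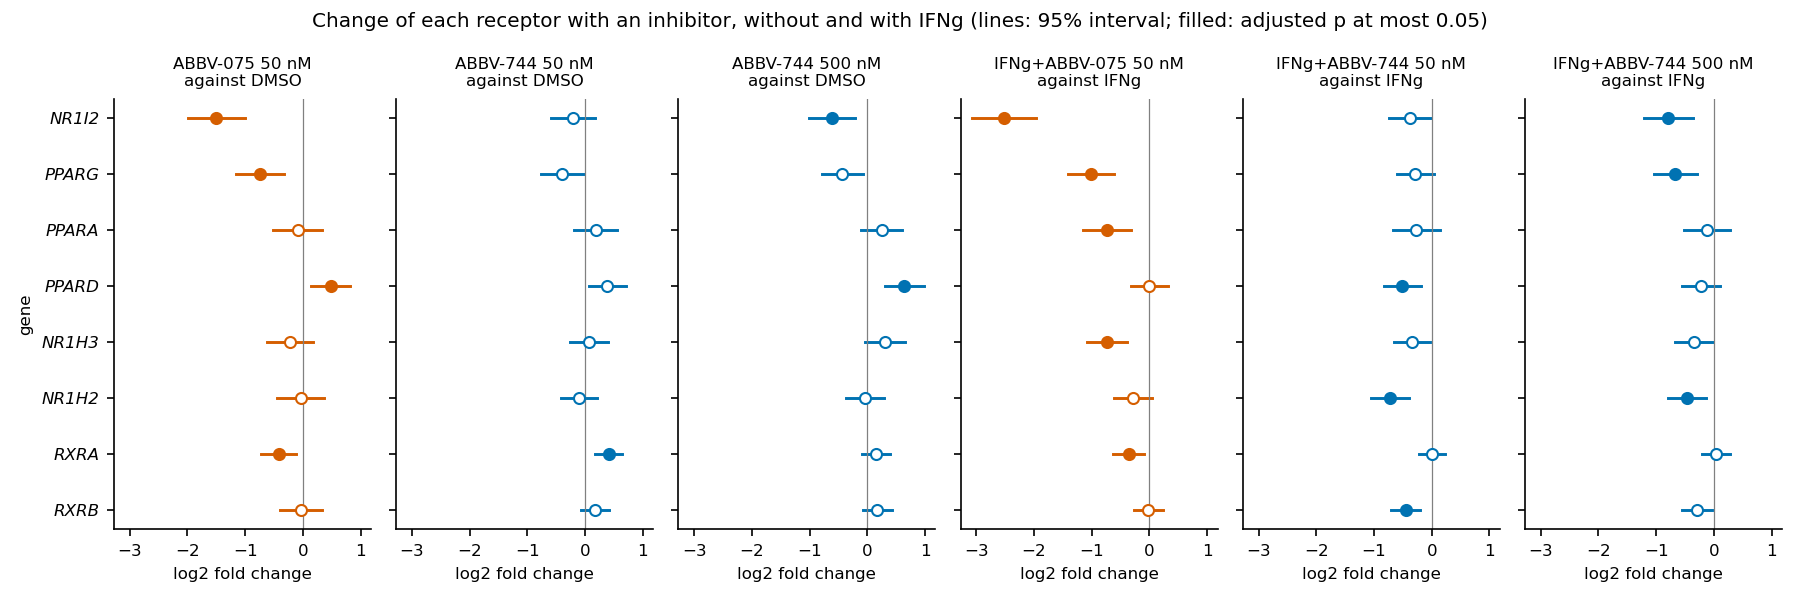
Log2 fold change of the 8 tested members in the 6 comparisons of an inhibitor with its control, with lines for the 95% interval and filled symbols where the adjusted p is at most 0.05. NR1I2 with IFNg plus ABBV-075 is the lowest, at -2.52, and PPARD with ABBV-744 at 500 nM the highest, at 0.64.

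Of 20 listed PPAR targets, 12 to 14 were tested in a comparison. ABBV-075 called 2 higher and 4 lower of 13, against 19.8% and 19.6% of all genes. With IFNg it called 2 higher and 6 lower of 12, against 28.2% and 28.4%. ABBV-744 without IFNg called 2 and 1 of 12 at 50 nM, against 8.81% and 10.1%. At 500 nM it called 2 and 2 of 13, against 7.48% and 7.8%. With IFNg it called 3 and 6 of 13 at 50 nM, against 27.4% and 24.3%. At 500 nM with IFNg it called 2 and 5 of 12, against 22.9% and 22.8%. IFNg alone called 1 and 1 of 14, against 2.76% and 0.695%, and the gene called higher was PLIN2 (0.33). PLIN2, which coats lipid droplets, fell from 280 ± 0.99 CPM in DMSO to 97.4 ± 6.28 CPM with ABBV-075 (SD, n = 3), or by 1.54 on the log2 scale (edgeR with Benjamini-Hochberg adjustment, adjusted p = 1.6e-06). It gave -0.61 and -0.83 with ABBV-744 at 50 nM and 500 nM. With IFNg present the fold changes of PLIN2 were -1.94 with ABBV-075 and -0.87 and -1.16 with ABBV-744, each past the threshold. The largest falls with IFNg plus ABBV-075 also included CREB3L3, a transcription factor that acts with PPAR alpha (-2.50), and those with ABBV-075 alone CIDEC, another lipid droplet gene (-1.49). Both genes had low counts. CREB3L3 had 2 to 4 in a library with IFNg plus ABBV-075 and 12 to 27 with IFNg. CIDEC had 5 to 7 with ABBV-075 and 15 to 26 in DMSO. FABP1, a fatty acid carrier, gave -1.10 with ABBV-075 and fell by 1.03 with IFNg plus ABBV-075. EHHADH, an enzyme of peroxisomal fatty acid oxidation, rose by 0.75 with ABBV-075, and with IFNg by 0.92, 1.45 and 1.21 with ABBV-075 and with ABBV-744 at 50 nM and 500 nM. ACADM, an enzyme of mitochondrial oxidation, rose with IFNg by 1.03, 1.48 and 1.16 in the same order. These counts were not tested against the shares of all genes.

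Other PPAR targets were called with ABBV-744, and some of those calls rest on single libraries. CPT2 was called higher at 500 nM (0.69), and its calls with ABBV-075 and with 50 nM ended under several of the libraries left out. EHHADH at 50 nM (0.48) was lost with library size only (0.38) and without DMSO replicate 1 (0.40) or ABBV-744 50 nM replicate 3 (0.46), and at 500 nM (0.43) with DESeq2 (0.43), library size only (0.36) and all 24 libraries in the fit (0.42) and without DMSO replicate 1 (0.35) or 3 (0.46). CD36 was called lower at 500 nM, and the call was lost without ABBV-744 500 nM replicate 3 (-1.63), and it was called lower with IFNg alone (-1.74), which was lost without any of the 3 DMSO or 3 IFNg libraries in turn (-1.80 to -1.69). With IFNg plus ABBV-744 at 50 nM CREB3L3 (-1.34) was lost without IFNg replicate 3 (SE 0.44, adjusted p 0.0615), and at 500 nM (-1.08) with DESeq2 (-1.05), after correction for GC content (-0.83) and without IFNg replicate 3 (-0.74) or IFNg plus ABBV-744 500 nM replicate 2 (-0.80). CPT1A (-0.51) was called lower at 500 nM with IFNg, and ACAA2 (0.44) higher at 50 nM with IFNg, neither of them after correction for GC content (-0.26 and 0.18), and CPT1A not with all 24 libraries in the fit (-0.50). CIDEC and CPT1A were called lower at 50 nM with IFNg, and neither call held under every library left out.

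NR1H3 encodes LXR alpha, the cholesterol sensor of liver and macrophages. Its level was 24.8, 25.1 and 28.3 CPM with IFNg and 16.7, 15.0 and 15.4 CPM with IFNg plus ABBV-075, without overlap. The log2 fold change was -0.74 (SE 0.17, edgeR with Benjamini-Hochberg adjustment, adjusted p = 0.00042). This call was kept under every alternative, with values from -0.78 to -0.46, the last after correction for GC content (adjusted p from 0.000107 to 0.011). Without IFNg, ABBV-075 left NR1H3 at 22.7, 15.2 and 19.2 CPM against 21.2, 21.5 and 23.4 CPM in DMSO, which overlapped, with a log2 fold change of -0.23 that did not pass. With ABBV-744 it was 22.7, 24.8 and 21.0 CPM at 50 nM and 20.1, 29.8 and 31.9 CPM at 500 nM, both overlapping DMSO, and passed only at 500 nM without replicate 1 of that treatment (0.50). With IFNg plus ABBV-744 it was 21.2, 22.3 and 17.1 CPM and 20.3, 18.4 and 23.4 CPM, all below IFNg alone, with log2 fold changes of -0.34 and -0.35 that did not pass, the former passing only without IFNg plus ABBV-744 50 nM replicate 2 (-0.43).

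NR1H2 encodes LXR beta, which is made in most tissues. It was 25.9, 23.6 and 28.3 CPM with IFNg, 13.7, 16.4 and 16.6 CPM with IFNg plus ABBV-744 at 50 nM, and 18.6, 18.4 and 20.0 CPM at 500 nM. All libraries with ABBV-744 lay below those with IFNg alone. The log2 fold changes were -0.72 (SE 0.16, edgeR with Benjamini-Hochberg adjustment, adjusted p = 0.000349) and -0.46 (SE 0.16, edgeR with Benjamini-Hochberg adjustment, adjusted p = 0.0209). The former kept its call but was -0.40 after correction for GC content (adjusted p from 0.000172 to 0.0443 over its alternatives). The latter did not pass with DESeq2 (-0.43), after correction for GC content (-0.25), or without IFNg replicate 3 (-0.41), IFNg plus ABBV-744 500 nM replicate 1 (-0.43) or replicate 2 (-0.44), and adjusted p ran from 0.0155 to 0.213. In the 4 groups without IFNg, NR1H2 lay between 19.1 and 31.7 CPM, and it passed no test without correction for GC content. With IFNg plus ABBV-075 it was 18.6, 21.8 and 24.1 CPM, which overlapped IFNg alone and did not pass.

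Of 10 listed LXR targets 9 were tested. ABBV-075 called 1 higher and 2 lower, against 19.8% and 19.6% of all genes, and with IFNg 1 and 4, against 28.2% and 28.4%. ABBV-744 called 0 and 1 at 50 nM, against 8.81% and 10.1%, and 1 and 1 at 500 nM, against 7.48% and 7.8%. With IFNg it called 0 and 4 at 50 nM, against 27.4% and 24.3%, and 0 and 3 at 500 nM, against 22.9% and 22.8%. IFNg alone called 0 and 0, against 2.76% and 0.695%. These counts were not tested against the shares of all genes. ABCA1, which moves cholesterol out of cells, fell from 151 ± 3.33 CPM in DMSO to 73.0 ± 10.1 CPM with ABBV-075 (SD, n = 3), or by 1.07 on the log2 scale, and fell by 1.23 with IFNg present. ABBV-744 gave -0.61 and -0.62 at 50 nM and 500 nM, and -0.37 with IFNg at 500 nM, which did not pass without IFNg replicate 2 (-0.28). ABCG8, part of the sterol export pump toward bile, fell by 1.20 and by 1.97. MYLIP, which targets the LDL receptor for degradation, rose by 1.55 with ABBV-075 and by 1.43 with IFNg plus ABBV-075. SCD, a fatty acid desaturase, gave -0.47, -0.41 and -0.41 with IFNg plus ABBV-075 and with IFNg plus ABBV-744 at 50 nM and 500 nM. LPCAT3 was called lower with IFNg plus ABBV-075 (-0.33) and plus ABBV-744 at 500 nM (-0.34), and SREBF1 with IFNg plus ABBV-744 at 50 nM (-0.46), but none of these passed after correction for GC content (-0.05, -0.06 and -0.16). The calls of PLTP and LPCAT3 at 50 nM with IFNg (lower) and of LPCAT3 at 500 nM without it (higher) did not hold under every library left out. Only MYLIP was higher in a call that held under every alternative.

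RXRA encodes RXR alpha, the main RXR of the liver, and it moved in opposite directions with the inhibitors at 50 nM. Its level was 52.8, 48.4 and 49.6 CPM in DMSO, 33.8, 38.8 and 42.1 CPM with ABBV-075 and 70.1, 64.4 and 63.5 CPM with ABBV-744 at 50 nM. All libraries with ABBV-075 lay below DMSO, and all with ABBV-744 above it. The log2 fold changes were -0.42 (SE 0.14, edgeR with Benjamini-Hochberg adjustment, adjusted p = 0.0332) and 0.41 (SE 0.11, edgeR with Benjamini-Hochberg adjustment, adjusted p = 0.0152). The call with ABBV-075 was lost with DESeq2 (-0.41), with the replicate block (-0.42) and without DMSO replicate 1 (-0.38), 2 (-0.45) or 3 (-0.43) or ABBV-075 replicate 1 (-0.33) or 2 (-0.43), with adjusted p from 0.00419 to 0.12, and it was kept with a value of -0.28 after correction for GC content. The call with ABBV-744 was lost with library size only (0.31), after correction for GC content (0.18) and without DMSO replicate 2 (0.38) or 3 (0.40), with adjusted p from 0.00718 to 0.27.

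With IFNg present, RXRA was 52.4, 56.4 and 64.6 CPM, and with IFNg plus ABBV-075 40.0, 43.5 and 52.7 CPM, with overlap. The log2 fold change was -0.36 (SE 0.13, edgeR with Benjamini-Hochberg adjustment, adjusted p = 0.0181). It did not pass with DESeq2 (-0.34), after correction for GC content (-0.20), or without IFNg replicate 3 (-0.29), IFNg plus ABBV-075 replicate 1 (-0.26) or replicate 2 (-0.34), with adjusted p from 0.00352 to 0.112. RXRB, the RXR gene with the highest level per length here, was 49.4, 50.2 and 52.9 CPM with IFNg and 41.0, 31.4 and 37.0 CPM with IFNg plus ABBV-744 at 50 nM. The groups did not overlap, and the log2 fold change was -0.45 (SE 0.12, edgeR with Benjamini-Hochberg adjustment, adjusted p = 0.00225), but -0.12 and no longer past the threshold after correction for GC content. In the 4 groups without IFNg, RXRB lay between 38.4 and 64.7 CPM and passed no test. With IFNg plus ABBV-075 it was 51.0, 46.8 and 53.6 CPM, which overlapped IFNg alone. With IFNg plus ABBV-744 at 500 nM it was 37.0, 41.8 and 46.4 CPM, below IFNg alone, a log2 fold change of -0.29 that passed only with the replicate block (-0.30) and without IFNg plus ABBV-744 500 nM replicate 3 (-0.36). RXRA was 50.9, 60.6 and 54.9 CPM with ABBV-744 at 500 nM, and with IFNg plus ABBV-744 it was 54.0, 55.7 and 61.3 CPM at 50 nM and 57.6, 58.7 and 62.4 CPM at 500 nM, each overlapping its control. With IFNg plus 500 nM RXRA passed only after correction for GC content (0.26).

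VDR was below the filter on low counts. It had 3, 5 and 9 counts in DMSO, 2, 1 and 7 with ABBV-075, 3, 5 and 1 with ABBV-744 at 50 nM and 2, 1 and 3 at 500 nM. With IFNg it had 2, 6 and 5 counts, 1, 1 and 2 with IFNg plus ABBV-075, 2, 2 and 1 with IFNg plus ABBV-744 at 50 nM and 2, 1 and 3 at 500 nM, so that most groups overlapped. With all genes kept whatever their counts, its log2 fold change was -0.57 (SE 0.69) with ABBV-075 and -1.65 (SE 0.89) with IFNg plus ABBV-075 (edgeR with Benjamini-Hochberg adjustment, adjusted p = 0.554 and 0.134), and neither passed. Of 3 listed VDR targets only CYP24A1, which breaks down active vitamin D, was tested. CYP24A1 stood at 49.1 to 58.4 CPM in DMSO and 59.5 to 72.4 CPM with IFNg. It fell by 0.59 with ABBV-075, which did not pass without DMSO replicate 1 (-0.51), and with IFNg it fell by 0.87 with ABBV-075 and by 0.63 and 0.85 with ABBV-744 at 50 nM and 500 nM. With ABBV-744 alone it was not past the threshold at 50 nM. At 500 nM it was called lower, a call lost with DESeq2 (-0.36), RLE scaling (-0.36), no filter on low counts (-0.37), all 24 libraries in the fit (-0.37) and the replicate block (-0.36), and without DMSO replicate 1 (-0.29), 2 (-0.38) or 3 (-0.41) or ABBV-744 500 nM replicate 1 (-0.32) or 3 (-0.34).

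The inhibitors were compared directly at their shared dose, 50 nM. Without IFNg, 0 members were higher and 2 lower with ABBV-075 than with ABBV-744, while 21.4% and 19.4% of all genes were. NR1I2 was lower by -1.26 (SE 0.26, 95% interval -1.84 to -0.69, edgeR with Benjamini-Hochberg adjustment, adjusted p = 0.00468). RXRA was lower by -0.80 (SE 0.14, 95% interval -1.12 to -0.48, edgeR with Benjamini-Hochberg adjustment, adjusted p = 0.00281). In both genes no library with ABBV-075 reached any library with ABBV-744, and both calls were kept under every alternative, with values from -1.42 to -1.05 for NR1I2 and from -0.87 to -0.44 for RXRA, the last after correction for GC content. The differences of the other members did not pass, with 95% intervals of -0.79 to 0.14 for PPARG, -0.24 to 0.48 for PPARD, -0.73 to 0.23 for PPARA, -0.69 to 0.16 for NR1H3, -0.36 to 0.55 for NR1H2 and -0.56 to 0.19 for RXRB. With correction for GC content NR1H2 (0.45), PPARD (0.49) and PPARG (-0.91) also passed.

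With IFNg present, 3 members were higher and 2 lower with ABBV-075 than with ABBV-744, against 16.7% and 17.0% of all genes. NR1I2 was lower by -2.07 (SE 0.28, 95% interval -2.64 to -1.50, edgeR with Benjamini-Hochberg adjustment, adjusted p = 1.36e-07), past the thresholds of the article, as were 1.13% of all genes in that direction. PPARG was lower by -0.66 (SE 0.19, edgeR with Benjamini-Hochberg adjustment, adjusted p = 0.00616), but did not pass without IFNg plus ABBV-075 replicate 2 (-0.54). NR1H2 (0.51), PPARD (0.58) and RXRB (0.51) were higher, and RXRB passed under every alternative, with values from 0.33 (after correction for GC content) to 0.60. NR1H2 was lost with DESeq2 (0.52), library size only (0.39), all 24 libraries in the fit (0.46) and correction for GC content (0.27), and without IFNg plus ABBV-075 replicate 2 (0.50) or 3 (0.42) or IFNg plus ABBV-744 replicate 1 (0.42). PPARD was lost without IFNg plus ABBV-075 replicate 3 (0.42) and was 0.38 after correction for GC content. The 5 members became 3 without IFNg plus ABBV-075 replicate 2. Scaling by library size alone moved the median of all genes by -0.12 and changed the calls among all genes from 1860 higher and 1892 lower to 1166 and 2836. NR1H3 and PPARA did not pass, with 95% intervals of -0.67 to 0.03 and -0.83 to 0.04, nor did RXRA, with -0.53 to -0.04 and an edgeR adjusted p of 0.0632 after Benjamini-Hochberg adjustment. RXRA did pass with library size only (-0.41), all 24 libraries in the fit (-0.33), the replicate block (-0.29) and correction for GC content (-0.52), and without IFNg plus ABBV-075 replicate 3 (-0.41). NR1H3 passed with library size only and with correction for GC content (both -0.44), and PPARA without IFNg plus ABBV-744 replicate 3 (-0.60).

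No member differed between 500 nM and 50 nM of ABBV-744 by edgeR's test. Without IFNg 0 were called, against 0.0% of all genes higher and 0.0274% lower, with 0 at an unadjusted p under 0.05 and 0 by DESeq2. With IFNg 0 were called against 1.41% and 0.29%, with 1 at an unadjusted p under 0.05 (PPARD, 0.34) and 0 by DESeq2, which gave an adjusted p for 1 member. The 95% intervals of the difference for NR1I2 were -0.88 to 0.07 and -0.78 to 0.08. They hold 0, and they also hold falls of some size. Among all genes the calls with IFNg went from 155 higher and 32 lower to 76 and 92 with library size only.

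Whether an inhibitor acted differently with IFNg was tested as an interaction. For ABBV-075, 0 members passed, against 0.0173% of all genes higher and 0.0173% lower. The count at an unadjusted p under 0.05 was 4, and DESeq2 called 0. The interaction of NR1I2 was -1.04, with an unadjusted p of 0.00913 and an edgeR adjusted p of 0.609 after Benjamini-Hochberg adjustment, so that its larger fall with IFNg did not pass the test of the difference. NR1H3 (-0.53), PPARA (-0.67) and PPARD (-0.50) were the other members under 0.05 before adjustment.

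For ABBV-744 at 50 nM, 0 members had a higher and 4 a lower effect with IFNg, against 25.0% and 26.5% of all genes tested. The interactions were -0.64 for NR1H2, -0.92 for PPARD, -0.44 for RXRA and -0.65 for RXRB (edgeR with Benjamini-Hochberg adjustment, adjusted p = 0.0117, 0.000759, 0.0196 and 0.00144). NR1H2 and RXRA were lost with DESeq2 (-0.58 and -0.38), with library size only (-0.46 and -0.25) and without IFNg plus ABBV-744 replicate 1 (-0.54 and -0.39), where 2 members passed. RXRA was lost also with no filter on low counts (-0.40) and without IFNg replicate 3 (-0.35). For ABBV-744 at 500 nM, 0 had a higher and 3 a lower effect with IFNg, against 18.5% and 15.0% of all genes. They were NR1H3 (-0.64), PPARD (-0.85) and RXRB (-0.45), with edgeR adjusted p of 0.035, 0.00584 and 0.0401 after Benjamini-Hochberg adjustment. NR1H3 was lost with DESeq2 (-0.62), with library size only (-0.55) and without DMSO replicate 1 (-0.61), 2 (-0.59) or 3 (-0.65), ABBV-744 replicate 2 (-0.57) or 3 (-0.50), IFNg replicate 3 (-0.57), or IFNg plus ABBV-744 replicate 1 (-0.63) or 2 (-0.57). RXRB passed in 5 of 20 alternatives. It was lost with DESeq2 (-0.44), all 24 libraries in the fit (-0.45), unstranded counts (-0.42), library size only (-0.36) and all genes kept whatever their counts (-0.44), and without DMSO replicate 1 (-0.45), 2 (-0.38) or 3 (-0.46), ABBV-744 replicate 1 (-0.44) or 2 (-0.36), IFNg replicate 2 (-0.46) or 3 (-0.42), or IFNg plus ABBV-744 replicate 1 (-0.38) or 2 (-0.46). The count of 3 became 1 without any of DMSO replicates 1, 2 and 3, ABBV-744 replicate 2, IFNg replicate 3 and IFNg plus ABBV-744 replicates 1 and 2. Both tests share the DMSO and IFNg libraries.

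These differences moved together with the GC content of genes. Genes were put in order by the GC content of their exons and divided into 5 bins of like size. The median interaction of ABBV-744 at 50 nM was 1.07 in the bin with the lowest GC content and -0.60 in the bin with the highest, and at 500 nM it was 0.82 and -0.34. Between the same 2 bins the median log2 fold change with ABBV-744 at 50 nM went from -0.32 to 0.25 against DMSO and from 0.78 to -0.32 against IFNg. With ABBV-075 it went from 0.44 to -0.13 and from 0.59 to -0.14. The lowest medians with ABBV-075 were in bin 4, at -0.17 against DMSO and -0.28 against IFNg. After correction for GC content the interactions at 50 nM were -0.06 for NR1H2, -0.35 for PPARD, 0.14 for RXRA and -0.08 for RXRB, none past the threshold. At 500 nM they were -0.25 for NR1H3, -0.47 for PPARD and -0.07 for RXRB, also none past it. PPARG, the member with the lowest GC content, then passed instead, with -0.75 at 50 nM, where it was 0.08 without the correction, and -0.83 at 500 nM. With IFNg plus ABBV-744 at 50 nM against IFNg, the corrected values were -0.88 for PPARG and 0.32 for RXRA, both past the threshold, against -0.28 and -0.00 uncorrected. The fall of NR1I2 with ABBV-075 was -1.36 and -2.26 after the correction, without and with IFNg. Scaling by library size alone moved the median interaction of all genes at 50 nM by 0.19, and the calls from 2866 higher and 3039 lower to 3386 and 1740, and at 500 nM from 2115 and 1712 to 2292 and 1095. The make-up of the reads also differed between the groups at 50 nM. Reads with more than 1 possible place were 66.2% to 69.4% with ABBV-744 at 50 nM and 57.5% to 59.6% with IFNg plus ABBV-744 at 50 nM, and reads outside genes were 14.8% to 17.3% and 22.8% to 24.1%, without overlap. At 500 nM the groups with and without IFNg overlapped in both. Reads with more than 1 possible place were 64.0% to 68.1% without IFNg and 64.3% to 66.3% with it. Reads outside genes were 15.6% to 19.1% and 18.1% to 18.9%. The part of GC content and of the make-up of the reads in the differences between groups was not tested beyond this correction.

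**Figure D4:**
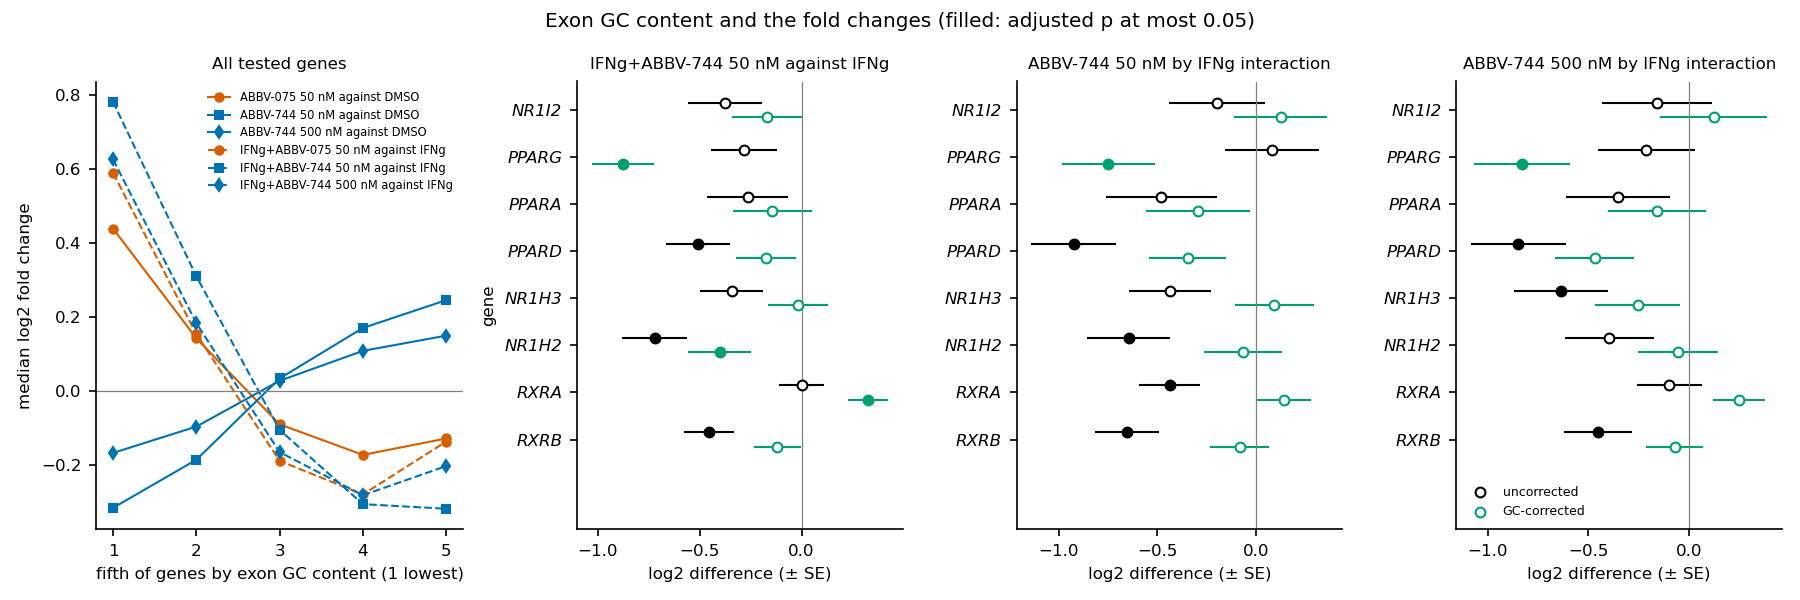
Median log2 fold change of all tested genes by bin of exon GC content in 6 comparisons (left), and log2 difference ± SE of the members before (black) and after (green) correction for GC content, filled where the adjusted p is at most 0.05. The interactions of ABBV-744 with IFNg that pass before the correction lie nearer 0 after it, for RXRB at -0.08 and -0.07.

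Other nuclear receptors and the coregulators of the family were counted from fixed lists. Of all genes, 19.8% were higher and 19.6% lower with ABBV-075, and 28.2% and 28.4% with IFNg plus ABBV-075. The counts of both lists were not tested against the shares of all genes, which are given for the other comparisons with the members above. Of 38 other nuclear receptors, 23 were tested with ABBV-075, with 4 higher and 9 lower, and 3 higher and 10 lower with IFNg. ABBV-744 called 3 and 5 at 50 nM and 2 and 2 at 500 nM, and with IFNg 5 and 5 of 23 and 4 and 5 of 22, and IFNg alone 0 and 1. NR1H4, the bile acid receptor FXR and another partner of RXR, fell by 3.83 with ABBV-075 and by 3.60 with IFNg plus ABBV-075, and gave -1.09 and -1.14 with ABBV-744 at 50 nM and 500 nM. NR2F6 fell with ABBV-075 by 1.07 and, with IFNg present, by 1.05, and HNF4G fell by 1.07 without IFNg and NR5A1 by 0.77 with it. NR2F6 also fell with IFNg plus ABBV-744, by 0.61 and by 0.52, as did NR6A1, by 0.46 and by 0.53, and NR1H4 at 500 nM, by 0.58. After correction for GC content these calls were kept, at -0.34 and -0.50 for NR2F6, -0.25 and -0.29 for NR6A1 and -0.96 for NR1H4. NR0B2 (0.44) and NR3C1 (0.65) were higher with IFNg plus ABBV-075, and RORA (0.97 and 0.79), HNF4G (0.92 and 0.83), NR3C1 (0.61 and 0.53) and NR2C1 (0.58 and 0.61) with IFNg plus ABBV-744, but none of these last values passed after correction for GC content. ESRRA was lower at 50 nM with IFNg (-0.55). After correction for GC content neither ESRRA (-0.25) nor NR3C1 with IFNg plus ABBV-075 (0.17) passed. Further calls each ended with at least 1 library left out: NR3C2, NR2C2, NR0B2 and NR3C1 with ABBV-075, RARA, NR0B2, HNF4A, HNF4G, NR5A2 and THRB with ABBV-744 at 50 nM, HNF4A, NR0B2 and HNF4G at 500 nM, NR3C1 with IFNg, RORA with IFNg plus ABBV-075 and NR4A1 with IFNg plus ABBV-744. Of 15 coregulators 14 were tested, and 4 were higher and 3 lower with ABBV-075, and 3 and 3 with IFNg. ABBV-744 called 4 and 4 at 50 nM and 5 and 3 at 500 nM, with IFNg 4 and 1 and 4 and 0, and IFNg alone 1 and 0. NCOA1, a coactivator of nuclear receptors, rose by 1.07 with ABBV-075, by 1.02 with IFNg plus ABBV-075 and by 0.59 and 0.63 with IFNg plus ABBV-744. NCOA3 gave 0.56 with ABBV-075, 0.59 with IFNg plus ABBV-075 and 0.47 and 0.39 with IFNg plus ABBV-744. NRIP1 gave 1.15 with IFNg plus ABBV-075 and 1.29 and 1.12 with IFNg plus ABBV-744, but -0.57 with ABBV-744 at 50 nM alone. After correction for GC content NRIP1 was 0.65, 0.60, 0.59 and -0.28, and NCOA3 0.18 and 0.22 with IFNg plus ABBV-744, all still past the threshold. EP300 was higher with ABBV-744 (0.56 and 0.58), and NCOA6 at 500 nM (0.50). TBL1XR1 was lower with ABBV-744 (-0.75 and -0.68) and higher with IFNg plus ABBV-744 (0.90 and 0.63), PPARGC1A was lower at 500 nM (-0.84), TBL1X with IFNg plus ABBV-075 (-0.70) and HDAC3 with IFNg plus ABBV-744 at 50 nM (-0.41). After correction for GC content the rises of TBL1XR1 (-0.00867 and -0.11) and the fall of HDAC3 (-0.18) did not pass, and the fall of TBL1XR1 with ABBV-744 at 50 nM was -0.38. Further calls each ended with at least 1 library left out: NRIP1, EP300, PPARGC1A, TBL1XR1 and TBL1X with ABBV-075, NCOA6, CREBBP, PPARGC1A and NCOA3 with ABBV-744 at 50 nM, CREBBP and NRIP1 at 500 nM, CREBBP with IFNg, and CREBBP and TBL1XR1 with IFNg plus ABBV-075.

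Markers of other cell types were checked on a list of 9 genes, of which 2 (CD68 and ACTA2) were tested. PTPRC, COL1A2 and DCN had 0 counts in every library. The summed level of the 9 genes was 35.9, 37.2 and 38.5 CPM (here scaled to reads on genes only) in DMSO and 19.8, 24.5 and 28.4 with ABBV-075. It was 38.2, 32.3 and 39.4 with ABBV-744 at 50 nM and 42.8, 40.9 and 32.7 at 500 nM. With IFNg it was 39.5, 44.8 and 43.0, and 24.3, 21.4 and 20.8 with IFNg plus ABBV-075, 22.8, 26.3 and 22.6 with IFNg plus ABBV-744 at 50 nM and 25.5, 21.5 and 22.1 at 500 nM. CD68 was the most abundant of them in DMSO, at 17.7 to 20.5 CPM. It fell by 0.81 with ABBV-075, and with IFNg by 1.11, 1.27 and 1.18 with ABBV-075 and with ABBV-744 at 50 nM and 500 nM. ACTA2 gave -0.77, -0.60 and -0.67 in the same order. It was called higher with ABBV-744 at 500 nM against DMSO (0.53), a call lost with DESeq2 (0.54), library size only (0.46) and the replicate block, and without DMSO replicate 1 (0.56), 2 (0.56) or 3 (0.48) or ABBV-744 500 nM replicate 1 (0.48) or 2 (0.50). The part of these genes in the results was not tested.

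The genes whose log2 CPM over the 24 libraries was most like that of a member, among 11694 genes, were PALMD (Pearson r = 0.936) and BHMT2 (0.926) for NR1I2 and PPP4R1 (0.923) and NREP (0.918) for PPARG. They were RALY (0.917) and TMEM189 (0.904) for RXRB, RAB35 (0.881) and VCP (0.88) for NR1H2, and RASSF4 (0.882) and NELFB (0.881) for PPARD. RXRA was most like ZNF629 (0.872) and RHBG (0.856), PPARA most like TFDP1 (0.854) and RPL23 (0.85), and NR1H3 most like PSMB7 (0.814) and MOGAT2 (0.802). Among the members, NR1H2 and RXRB (0.799), NR1I2 and PPARG (0.765), PPARD and RXRB (0.747) and NR1I2 and NR1H3 (0.679) were the most alike over the 24 libraries. These libraries share their treatments, and the values describe them only.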

How the data were processed

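The values are read counts per gene as deposited by the authors, who trimmed reads with Trimmomatic 0.33, aligned them with STAR 2.7.1 and counted reads on genes. The column that counts reads in the direction of the gene was taken. It leaves out reads with more than 1 possible place. Reads on genes ran from 2978982 to 4304103 per library. Symbols were paired with GENCODE v44 (24531 of 26475).

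Each treatment was compared with its control, the inhibitors with each other at 50 nM, the ABBV-744 doses with each other, and each inhibitor effect with and without IFNg as an interaction. The test was edgeR 4.0.16 (R 4.3.3) with filterByExpr, TMM, glmQLFit, glmQLFTest and Benjamini-Hochberg adjustment over all genes tested, called at 0.05. The article's fold threshold, an absolute log2 fold change of 1.5, was counted separately. Alternatives were DESeq2 1.42.0, RLE scaling, scaling by library size alone, all genes kept whatever their counts, all 24 libraries in the fit, a replicate block, unstranded counts, a lowess correction for exon GC content (span 0.3) and leaving out each library. CPM are TMM scaled. Tables and figures were made with Python 3.11.15, pandas 2.3.3, numpy 2.4.6 and matplotlib 3.10.9.

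All 10 members are described in every group. From lists of other nuclear receptors, coregulators and LXR, PXR and CAR, PPAR and VDR targets, genes were counted by direction, and up to 4 called genes per direction with the largest absolute fold change were named, here only for comparisons with DMSO or IFNg. Names for the remaining comparisons were left out for length. Some called genes are withheld from the text and not named. Members and lists were chosen with earlier results of these data known.

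With 3 libraries per group the smallest exact permutation p is 0.1, and calls of modest size often rest on single libraries. Treatment times and the dose of IFNg are not in the labels. Most reads are absent from the gene counts. Values changed with GC content between groups, and a correction for it altered several calls. NR1I3 and VDR were below the filter on low counts, and neither was called with all genes kept. RNA levels do not show protein levels or receptor activity, and bulk RNA does not tell apart cells and RNA per cell.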

Additional observations from a re-analysis of the deposited data

Results flagged for a closer look

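The fitted effect of ABBV-744 on several members differed with IFNg. At 50 nM the interaction was -0.64 for NR1H2, -0.92 for PPARD, -0.44 for RXRA and -0.65 for RXRB, and at 500 nM it was -0.64 for NR1H3, -0.85 for PPARD and -0.45 for RXRB. None passed after correction for GC content. At 50 nM the shares of reads with more than 1 possible place also differed without overlap, 66.2% to 69.4% without IFNg and 57.5% to 59.6% with it. At 500 nM they overlapped, 64.0% to 68.1% without IFNg and 64.3% to 66.3% with it. In DMSO the share was 56.0% to 61.0%, and neither dose of ABBV-744 without IFNg overlapped it. The cause was not tested.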

How the results depend on the processing

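Members called changed as follows. ABBV-075 against DMSO had 4, 2 with DESeq2, 3 with the replicate block and 1 to 4 with a library left out. ABBV-744 at 50 nM had 1, 0 with library size only, 0 with GC correction and 0 to 2. At 500 nM it had 2, 1 with DESeq2, 1 with the replicate block and 0 to 2. IFNg plus ABBV-075 had 5, 4 with DESeq2 and GC correction and 4 to 5. IFNg plus ABBV-744 had 3 at 50 nM, 3 to 4, and 3 at 500 nM, 2 with DESeq2, 4 with the replicate block and 2 to 4. With GC correction PPARG and RXRA replaced PPARD and RXRB at 50 nM, and RXRA replaced NR1H2 at 500 nM. ABBV-075 against ABBV-744 had 2, 5 with GC correction, and with IFNg 5, 4 with DESeq2, 6 with library size, replicate block or GC correction and 3 to 6. The interaction at 50 nM had 4, 2 with DESeq2, 2 with library size only, 3 without the filter, 1 with GC correction and 2 to 5. At 500 nM it had 3, 1 with DESeq2, library size only or GC correction, 2 without the filter, with all 24 libraries or with unstranded counts, and 1 to 3. At both doses the 1 member called with GC correction was PPARG, which was not called without it. The sign of the value changed with GC correction in RORA (-0.0177) and AFP (-0.28) with IFNg plus ABBV-075. With IFNg plus ABBV-744 it changed in NR2C1 (-0.17), NR3C1 (-0.0532), TBL1XR1 (-0.00867) and LPCAT3 (0.0267) at 50 nM and in TBL1XR1 (-0.11) at 500 nM. In the interaction at 50 nM it changed in PPARG (-0.75), RXRA (0.14), RORA (-0.24), ABCB1 (-0.14), ACADVL (0.10), ALB (-0.11) and APOA1 (0.0496). Of these corrected values only those of AFP and PPARG passed the threshold. Of 66 library and comparison pairs, which reuse libraries, 27 were closest to their own number and 39 to either of the other numbers. Whether replicate numbers pair libraries was not tested, and these counts cannot decide it. RXRA with IFNg plus ABBV-744 at 50 nM was -0.00 uncorrected and 0.32 with GC correction. The cause was not tested.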
